A study of Arabidopsis thaliana with 16 samples.

Results

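The subject is the response of Arabidopsis thaliana roots to auxin while a hormone-activated form of the transcription factor LBD16 was present and switched on, measured as the group NAA+DEX against the group DEX. Membership followed from the treatment labels: the 2 arrays that received NAA and DEX and the 2 arrays that received DEX, both without CHX, which makes 4 of the 16 arrays. Every plant of the study carried gLBD16:GR, LBD16 fused to the glucocorticoid receptor and carried as a genomic construct, in a background with the lbd16-1, lbd18-1 and lbd33-1 alleles, and no roots without the fusion were analysed here. Seedlings grew for 5 days under continuous light on agar with 1x MS medium, were treated for 4 hours, and roots were collected as the tissue. DEX (dexamethasone) was given at 2 µM, NAA (1-naphthaleneacetic acid, a synthetic auxin) at 1 µM, and CHX (cycloheximide, an inhibitor of protein synthesis) at 10 µM. The mock treatment contained 0.1% DMSO. All combinations of the agents made 8 groups of 2 arrays. Both groups under study therefore had an activated fusion, and they differed by NAA.

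Auxin acts through receptor complexes that bring about the destruction of Aux/IAA proteins, repressors of the auxin response factors. The released response factors switch on early genes, among them the Aux/IAA genes themselves, GH3 genes whose products conjugate auxin to amino acids, and LBD genes. LBD16 and LBD29 are direct targets of such factors in the root and take part in the first divisions of lateral root founder cells. A protein fused to the glucocorticoid receptor is held in the cytoplasm until dexamethasone binds.

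The values are probe set intensities, in arbitrary units, scaled so that the trimmed mean of each array was 500. All differences below are on the scale log2(intensity + 16), and a value passed at an adjusted p under 0.05 in limma, fitted over all 16 arrays. Because 16 was added, differences of probe sets with intensities near or below that number are understated. The median intensity was 155.9 and 150.9 on the DEX arrays and 167.5 and 170.5 on the NAA+DEX arrays. Over all probe sets the log2 difference between the 2 arrays of a group had an SD of 0.406 with DEX and 0.41 with NAA+DEX, against 0.461 for mock and 0.394 for NAA. In a principal component analysis of the 16 arrays the first component held 79.7% of the variance. The second component, with 7.31%, placed the DEX arrays at -44.8 and -44.6 and the NAA+DEX arrays at 54.1 and 52.7. The 3'/5' ratio of the actin control was high throughout, between 18.0 and 24.9 on the 4 arrays, with the DEX arrays between those of NAA+DEX. That of the ubiquitin control was 2.38 and 3.01 with DEX and 2.88 and 2.97 with NAA+DEX, and that of GAPDH was 1.25 and 1.37 against 1.14 and 1.27, so these ranges overlapped too. The labels do not say that the 2 arrays of a group came from separate cultures, so p-values measure the spread between these arrays, which may be technical.

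Auxin changed the level of 5436 of 22746 probe sets in roots with DEX, 23.9% of those tested, with 3203 higher (14.1%) and 2233 lower (9.82%). The changes reached at least 2-fold for 1133 rises and 982 falls, at least 8-fold for 71 rises and 64 falls, and at least 32-fold for 5 rises and 1 fall. Rises made up 58.9% of the calls. The median of all probe sets was 0.0773 higher with NAA+DEX, and the split depended on the scaling: rises were 50.6% of calls after quantile normalization (2578 and 2513) and 44.7% after centring each array on its median (2296 and 2843), where the median of all probe sets was -0.0505. The number of calls was 3453 without DEX replicate 2 and 3367 without NAA+DEX replicate 1. The annotation gave exactly 1 gene for 13513 probe sets, which stand for 13356 genes. Of these genes 21.8% passed, 13.1% higher and 8.69% lower, and these shares are the background for the gene groups below. In whole roots, fewer cells of a type and less RNA per cell cannot be told apart.

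Auxin metabolism and signalling held several of the 12 largest rises. GH3.3, which encodes a GH3 auxin-conjugating enzyme, had intensities of 528 and 369 with DEX and 20774 and 20744 with NAA+DEX. This was a log2 rise of 5.50 (SE 0.23, adjusted p = 9.1e-08) and the first in rank with 16 added, while with a pseudocount of 1 AT1G73610 ranked above it (7.28 against 5.55). GH3.1 went from 106 and 68.5 to 4117 and 3484, a log2 rise of 5.23 (SE 0.19, adjusted p = 5.9e-08). WES1, another GH3 enzyme, went from 709 and 693 to 12173 and 13020.5, a log2 rise of 4.14 (SE 0.12, adjusted p = 1.4e-08). For all of these the groups lay much further apart than the replicates did. The other 4 of the 7 measured genes of auxin conjugation and oxidation did not pass, so that 3 rose and 0 fell.

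Among the Aux/IAA repressors, 7 of 29 listed genes were measured, 4 rose and 1 fell. IAA29 had 19.2 and 71.1 with DEX and 1451 and 1319 with NAA+DEX (log2 rise 4.66, SE 0.40, adjusted p = 1.5e-05). IAA30, which lacks the domain through which most Aux/IAA proteins are degraded, had 44.7 and 18.2 against 699.5 and 670.1 (log2 rise 3.94, SE 0.27, adjusted p = 2.7e-06). IAA18 went from 340.1 and 285 to 1117 and 1309 and rose by 1.90 (SE 0.22, adjusted p = 0.00012). IAA20, which also lacks the degradation domain, went from 47.3 and 63.3 to 175 and 214 and rose by 1.56 (SE 0.22, adjusted p = 0.00052). The exception in direction was IAA33, an atypical member of the family. Its intensities were 84.9 and 102 with DEX and 27.1 and 7.4 with NAA+DEX, so it fell by 1.78 on the log2 scale (SE 0.31, adjusted p = 0.002). IAA31 and IAA34 gave 0.15 and -0.08 and did not pass.

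The few measured genes that supply and move auxin went the other way or did not pass. YUC6, a flavin monooxygenase of auxin synthesis, had 139.6 and 113 with DEX and 42.7 and 14.8 with NAA+DEX, and fell by 1.73 (SE 0.33, adjusted p = 0.003). It was the single called gene of 4 measured for auxin synthesis, of 25 listed. WAG2, a protein kinase that acts on PIN auxin carriers, went from 458 and 479 to 207 and 263 and fell by 0.96 (SE 0.19, adjusted p = 0.0047). It was 1 of 2 measured genes of auxin transport, of 38 listed. SKP2A, an F-box protein, was the one measured gene of receptors and response factors; its difference was -0.40 and did not pass.

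**Figure D1:**
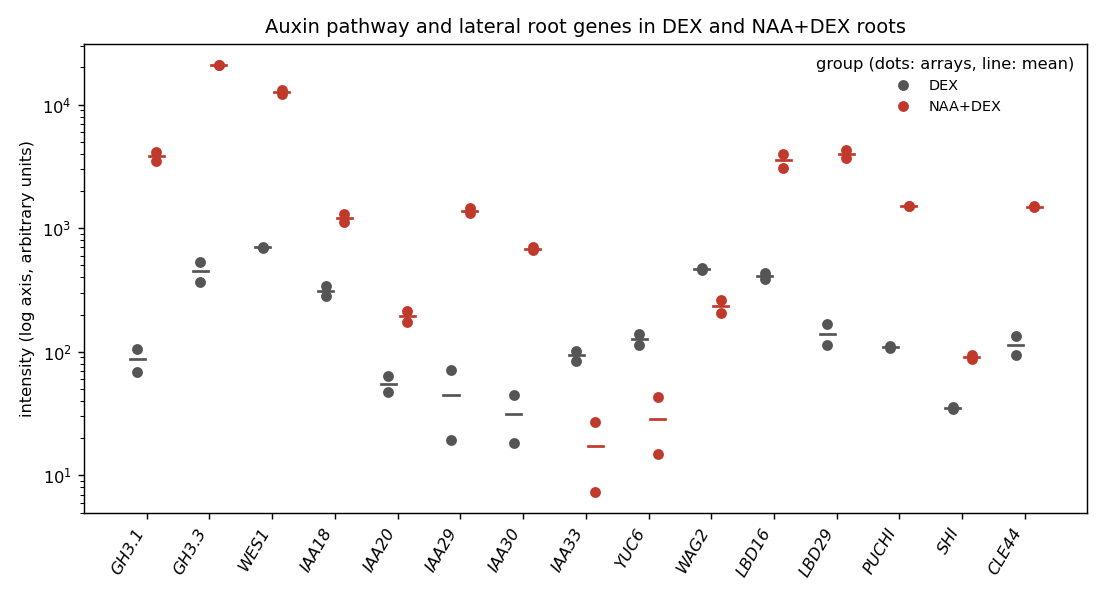
Intensity (log axis, arbitrary units) of 15 auxin pathway, lateral root and peptide genes in the DEX and NAA+DEX groups; each dot is an array and each line the mean of 2 arrays. For every gene drawn the arrays of the groups do not overlap, a property of 61.4% of all probe sets. IAA33, YUC6 and WAG2 are lower and the other genes higher with NAA+DEX.

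All 4 measured genes of lateral root initiation, of 43 listed, rose with NAA+DEX. LBD29 had 167 and 113 with DEX and 3695 and 4266 with NAA+DEX, a log2 rise of 4.69 (SE 0.18, adjusted p = 6.7e-08). PUCHI patterns the young lateral root primordium as a member of the AP2/ERF factors. It had 108 and 110.4 against 1520 and 1513, a log2 rise of 3.61 (SE 0.15, adjusted p = 7.4e-08). The probe set of LBD16 itself, in plants that carry lbd16-1 and the fusion, had 437 and 386 with DEX and 4003 and 3081 with NAA+DEX, a log2 rise of 3.05 (SE 0.15, adjusted p = 2.5e-07). Whether it reads the mutant allele, the fusion transcript or both was not tested. SHI, a zinc-finger regulator, was faint, with 34.5 and 36 against 87.7 and 94.5, and rose by 1.06 (SE 0.26, adjusted p = 0.012). Its call was lost without either DEX array (adjusted p = 0.058 and 0.052) or NAA+DEX replicate 2 (0.062), and with a pseudocount of 1 (0.088). LBD18 and LBD33 had no probe set with a single annotated gene and were not analysed here.

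Other regulators and signals moved in smaller steps. HAT2, an auxin-induced homeodomain gene, went from 596 and 557 to 864 and 992 and rose by 0.67 (SE 0.12, adjusted p = 0.0028), a call lost with only the arrays compared (0.053). RTE1, which keeps ethylene responses low through the receptor ETR1, went from 212 and 219 to 619 and 680.3 and rose by 1.52 (SE 0.17, adjusted p = 0.00011). RR16, a response regulator of cytokinin signalling, fell by 0.99 (SE 0.31, adjusted p = 0.039), a call lost without either DEX array (0.21 and 0.057) or NAA+DEX replicate 2 (0.23). GID1A and GID1C, gibberellin receptors, gave -0.62 (adjusted p = 0.05) and -0.38 and did not pass. GID1A passed under 6 of the other settings, quantile normalization (adjusted p = 0.033) among them, and without DEX replicate 1 (0.012). PHV, a homeodomain factor of organ polarity and vascular patterning, went from 189 and 140.3 to 282 and 286 and rose by 0.74 (SE 0.23, adjusted p = 0.034), as 1 of 5 measured stem cell and patterning genes. That call was lost under quantile normalization, with only the arrays compared, and without DEX replicate 2 or either NAA+DEX array. WRKY22, a defence-related factor, was the single riser of 4 measured stress genes, at 0.57 (adjusted p = 0.039), and it did not pass under quantile normalization or median centring.

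Of 17 measured small secreted peptides, 2 rose, 5 fell and 10 did not pass. CLE44, which encodes the TDIF peptide that holds back xylem differentiation, had 134 and 94.1 with DEX and 1500 and 1488 with NAA+DEX, a log2 rise of 3.55 (SE 0.19, adjusted p = 5.2e-07). CLE26, another CLE peptide of the root, went from 92.8 and 72.7 to 194 and 142 and rose by 0.89 (SE 0.21, adjusted p = 0.011). The 5 that fell were RALF-like peptides, relatives of a peptide that alkalinises the cell wall. Of those named here RALFL32 fell the most, from 2912 and 2819.5 to 1642 and 1552 (by 0.84, SE 0.15, adjusted p = 0.0027). RALFL24, RALFL27 and RALFL34 fell by 0.81, 0.61 and 0.59. The groups did not overlap for these peptides, a property of 61.4% of all probe sets. Without NAA+DEX replicate 2 the 5 falls became 2. CLE26 did not pass without DEX replicate 2 (adjusted p = 0.087) or NAA+DEX replicate 1 (0.097).

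Of 95 listed cell cycle genes 8 were measured, of which 5 rose with NAA+DEX and 0 fell. ICU2, the catalytic subunit of DNA polymerase alpha, went from 98.4 and 117 to 236 and 287 and rose by 1.16 (SE 0.18, adjusted p = 0.00081). PRL, an MCM helicase subunit of DNA replication, went from 638 and 775 to 1235 and 1147 and rose by 0.75 (SE 0.15, adjusted p = 0.0041). The call of PRL was lost in at least 1 of the 10 settings other than leaving out an array. HTR12, the centromeric histone, went from 179 and 157 to 278 and 276 and rose by 0.67 (SE 0.21, adjusted p = 0.042). AUR1, a mitotic Aurora kinase, went from 638 and 585 to 1004 and 944 and rose by 0.66 (SE 0.16, adjusted p = 0.012). The NAA+DEX arrays were above the DEX arrays in each case, while 61.4% of all probe sets did not overlap in one direction or the other. The 5 became 3 under quantile normalization and under median centring, and 2 without DEX replicate 2. AUR1 did not pass without DEX replicate 2 or NAA+DEX replicate 1 (adjusted p = 0.076 and 0.072), and HTR12 did not pass without any one of the 4 arrays compared.

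Genes of cell wall loosening formed the largest measured list, with 28 of 69 listed genes, of which 3 rose and 13 fell. Expansins act on the bonds between wall polymers, and XTH enzymes cut and rejoin xyloglucan chains. XTH21 had 597 and 506 with DEX and 2.27 and 12.6 with NAA+DEX, and fell by 4.63 (SE 0.23, adjusted p = 2.3e-07). EXPB1, a beta-expansin, went from 845 and 925 to 75.1 and 89.4 and fell by 3.2 (SE 0.14, adjusted p = 1.3e-07). XTH16 went from 513 and 585 to 78.6 and 87.4 and fell by 2.51 (SE 0.16, adjusted p = 1.4e-06). XTH32 went from 1076 and 946 to 208 and 196 and fell by 2.23 (SE 0.15, adjusted p = 2.5e-06). Alpha-expansins went both ways, with 3 rises and 2 falls among 10 measured. EXPA8 fell by 1.75 and EXPA18 by 0.78. EXPA4 went from 3715 and 3204 to 11862 and 12157, a log2 rise of 1.79 (SE 0.12, adjusted p = 3.2e-06). EXPA20 went from 262 and 239 to 795 and 632 and rose by 1.44 (SE 0.16, adjusted p = 0.00011). EXPA15 went from 1911 and 1849.8 to 3794 and 3559.6 and rose by 0.96 (SE 0.13, adjusted p = 0.00045). The median over the list was -0.37, against 0.0799 over all genes. Of 104 listed genes of pectin remodelling 5 were measured, and 0 of these passed in limma. The other listed genes were not measured, so this does not describe pectin remodelling as a whole.

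The few measured members of the lists of specialised metabolism fell where they passed. BCAT4, which starts the chain elongation of methionine towards glucosinolates, went from 3415 and 3225 to 376 and 416 and fell by 3.02 (SE 0.18, adjusted p = 1.2e-06). UGT74B1, a glucosyltransferase of the glucosinolate core, went from 3235 and 2551 to 666 and 586 and fell by 2.17 (SE 0.19, adjusted p = 1.5e-05). These were 2 of 4 measured glucosinolate genes. Of 5 measured flavonoid and phenylpropanoid genes 3 fell. UGT78D1 and UGT78D2, flavonol glycosyltransferases, fell by 1.75 and 0.73, and both calls were lost without DEX replicate 1 (adjusted p = 0.056 and 0.058) or NAA+DEX replicate 2 (0.079 and 0.084). HCT, an acyltransferase on the route to lignin, went from 3792 and 3735 to 1819 and 1704 and fell by 1.09 (SE 0.15, adjusted p = 0.00044). Of 76 listed class III peroxidases 6 were measured, and 2 of these fell. Peroxidases that were not matched to the list are not counted here. AT2G41480 (peroxidase PRX25) went from 293 and 291 to 50.9 and 55.8 and fell by 2.15 (SE 0.18, adjusted p = 1e-05).

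**Figure D2:**
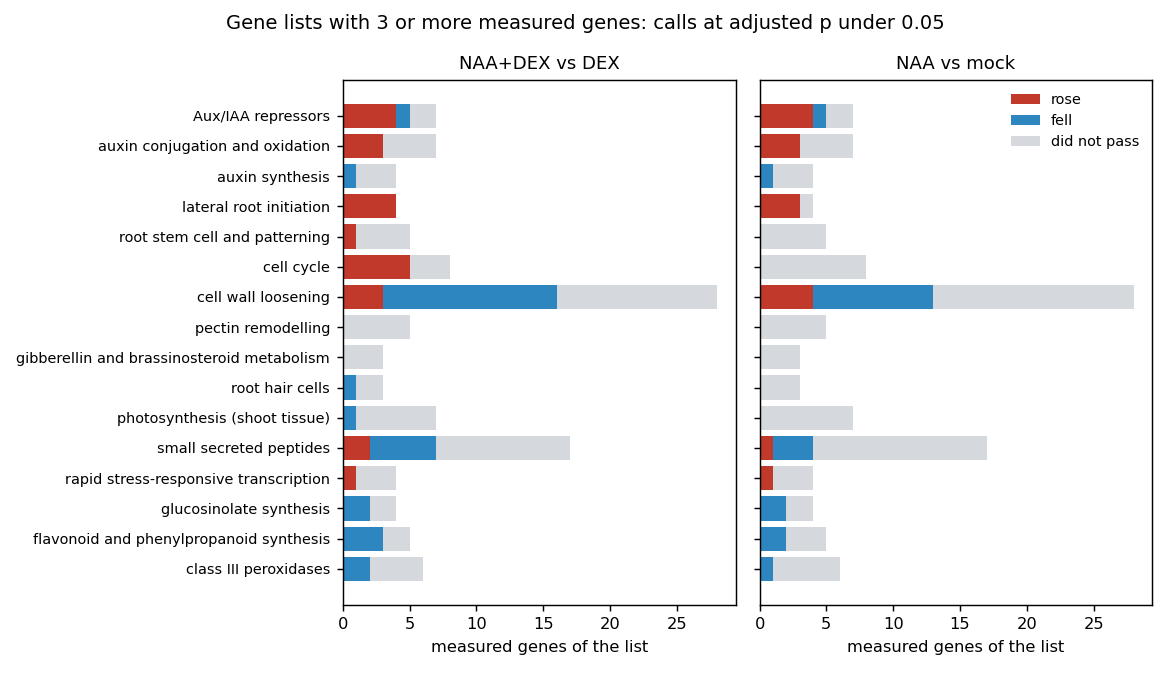
Number of measured genes (horizontal axis) in each gene list with 3 or more measured genes, divided into those that rose, fell or did not pass, for NAA+DEX vs DEX (left) and NAA vs mock (right). Cell cycle shows 5 rises of 8 on the left and 0 on the right, and cell wall loosening 13 falls of 28 on the left and 9 on the right.

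Cell type markers were measured sparsely. The root hair list had 3 measured genes, with summed intensities of 5465 and 5939.8 with DEX and 4087 and 4417 with NAA+DEX. One of them, EXPA18, a root hair expansin, went from 2528 and 2832 to 1511 and 1587 and fell by 0.78 (SE 0.16, adjusted p = 0.0052). It is part of that sum, and the other 2 genes did not pass. GSO1, a receptor kinase of the endodermal barrier, went from 584 and 401 to 308 and 258 and fell by 0.75 (SE 0.18, adjusted p = 0.013), which was lost without DEX replicate 1 (0.11) or NAA+DEX replicate 2 (0.092). OPS, of the phloem, had 90.2 and 94.2 against 32.6 and 43.7, a difference of -1.01 that did not pass (adjusted p = 0.07) but did under quantile normalization and median centring (0.041 and 0.048). The 7 measured photosynthesis genes, which would mark shoot tissue, summed to 794 and 960.0 with DEX and 628 and 643 with NAA+DEX, and 1 of them, LHCB4.1, fell by 0.55, a call lost without any one of the 4 arrays compared. No xylem marker was measured. The part of cell composition in the changes above was not tested.

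Outside these lists, the largest changes were mostly in genes that the tables name by locus alone. AT1G73610 rose the most of these, from 4.77 and 4.90 with DEX to 915 and 895 with NAA+DEX, a log2 rise of 5.47 (SE 0.27, adjusted p = 2.7e-07). PR-1-LIKE went from 40.1 and 7.1 to 1250 and 901 and rose by 4.90 (SE 0.55, adjusted p = 9.5e-05). AT4G37290 and AT4G37295, neighbours on chromosome 4, went from 49.5 and 51.3 to 1567 and 1678 and from 285 and 209 to 4573 and 4853. AT2G19970 and AT3G51410 rose by 4.29 and 3.97. The largest fall with 16 added was that of AT4G25250, from 2251 and 2541 to 24.3 and 48, a log2 fall of 5.57 (SE 0.36, adjusted p = 1.8e-06). With a pseudocount of 1 XTH21 fell further, at -6.37 against -6.09. AT4G30450 and AT4G30460, also neighbours, went from 2302 and 2432 to 67.5 and 81.9 and from 1661 and 1950 to 86.4 and 59. The remaining 8 of the 12 largest falls, AT5G04120, AT2G25150, AT3G45680, AT3G62040, AT2G34610, AT3G01190, AT1G19900 and AT3G53980, lay between -4.19 and -3.44. All 24 were selected as non-overlapping between the groups, a property of 61.4% of all probe sets.

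**Figure D3:**
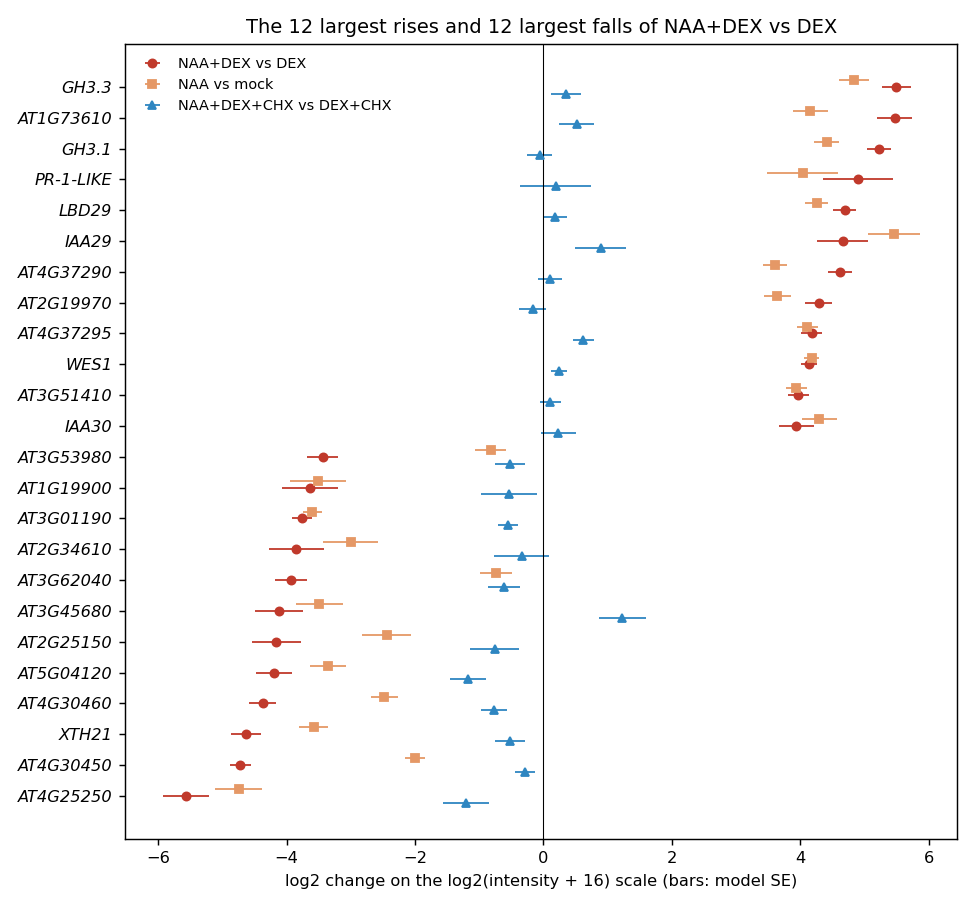
Log2 change (horizontal axis, with model SE) of the 12 largest rises and 12 largest falls of NAA+DEX vs DEX, with the same genes in NAA vs mock and in NAA+DEX+CHX vs DEX+CHX. Rises of 3.94 to 5.50 and falls of 3.44 to 5.57 with DEX are accompanied by changes of the same sign without DEX, while the values under CHX lie nearer to 0.

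Whether the auxin response differed with DEX was addressed by setting NAA+DEX vs DEX beside NAA vs mock, which uses none of the same arrays. No roots without the fusion were analysed, so an effect of DEX itself cannot be told apart from activation of the fusion. Without DEX 3042 probe sets passed, 13.4% of those tested, with 1661 higher (7.3%) and 1381 lower (6.07%). Of the 5436 called with DEX, 2228 were called in the same direction without it (1184 rises and 1044 falls), which is 41.0% of the calls with DEX and 73.2% of those without. The sign was shared by 92.6% of the 5436, and 26 were called in opposite directions. Pearson's r over the 22746 probe sets was 0.691, a description across probe sets that share an array design and are not independent replicates. A higher number of calls with DEX does not show that the responses differ, and the difference itself passed for 187 probe sets, 0.822% of those tested (90 positive, 0.396%, and 97 negative, 0.426%). That number was 377 without mock replicate 2 and 89 without NAA replicate 1, and 14 with only the 8 arrays without CHX.

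The auxin-induced genes named here rose both with and without DEX. GH3.3 rose by 4.84 without DEX, from 603 and 845 to 21444 and 20511, and the difference of 0.66 (SE 0.33) did not pass. GH3.1 went from 49.7 and 64.4 to 1488 and 1565 without DEX, a rise of 4.41 against 5.23 with it (difference 0.82, SE 0.27, adjusted p = 0.27). HAT2 rose by 1.28 without DEX and 0.67 with it (difference -0.61, SE 0.18, adjusted p = 0.2). A difference that did not pass does not show equal responses at this number of arrays. LBD29 rose by 4.26, WES1 by 4.18, IAA29 by 5.46 and IAA30 by 4.30. LBD16 rose by 3.4, and the difference of -0.35 (SE 0.21) did not pass. PUCHI went from 63.5 and 46.7 to 495 and 573, a log2 rise of 2.96, against 3.61 with DEX (difference 0.65, SE 0.21, adjusted p = 0.26). Over all genes 6.78% rose and 5.22% fell without DEX, and the difference passed for 0.674%. All 12 of the largest rises also passed without DEX, and for 0 of them did the difference pass in limma. Of the 12 largest falls 11 also passed without DEX, and for 4 the difference passed. Both sets of 12 were chosen by their change with DEX, which is a term of that difference. Their counts therefore cannot be set against the share over all genes. The 8 measured cell cycle genes gave 5 calls with DEX and 0 without it in limma, but the difference passed for 0 of 8, so a change in their response was not shown. ICU2, for example, differed by 0.61 (SE 0.25, adjusted p = 0.39).

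**Figure D4:**
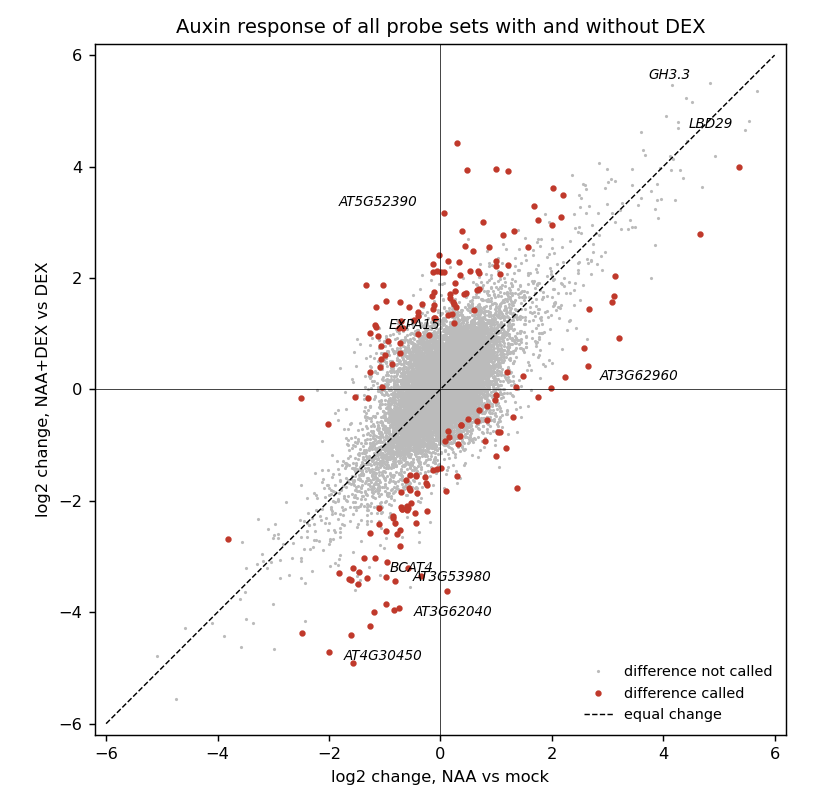
Log2 change of each of 22746 probe sets in NAA vs mock (horizontal axis) and NAA+DEX vs DEX (vertical axis); the dashed line marks equal change and the 187 larger dots are probe sets whose difference passed. GH3.3 and LBD29 lie near the line, EXPA15 has opposite signs on the axes, and AT3G62040 and AT4G30450 lie below the line.

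The alpha-expansin EXPA15 responded in opposite directions. Without DEX its intensity was 1801 and 1903 in mock and 799 and 894 with NAA, a log2 fall of 1.12 (SE 0.13, adjusted p = 0.00026). With DEX it rose, as given above, so that the NAA+DEX arrays were the highest of the 8 arrays without CHX and the NAA arrays the lowest. The difference of 2.08 (SE 0.19) passed at an adjusted p = 0.0013. EXPA4 rose in both settings, from 3027 and 3586 to 5359 and 5297 without DEX (0.69, SE 0.12), and by 1.1 more with DEX (SE 0.18, adjusted p = 0.016). These were the 2 wall genes of 28 whose difference passed.

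Of the 6 genes with the largest positive differences, all rose with DEX, and AT2G03740 also rose without it (1.21, adjusted p = 0.043). AT5G52390 had 90.2 and 74.5 with DEX and 872 and 862 with NAA+DEX, against 39.8 and 26.3 in mock and 27.6 and 43 with NAA (difference 3.11, SE 0.43, adjusted p = 0.0092). AT3G57950 went from 188 and 125 to 1218 and 1180 with DEX and from 106 and 102 to 123 and 164 without it, a difference of 2.44 (SE 0.39, adjusted p = 0.017). AT3G59850 went from 217 and 158 to 984 and 1137 with DEX, while mock at 184 and 238 and NAA at 180.2 and 233 overlapped (difference 2.44, SE 0.27, adjusted p = 0.003). AT1G72540, AT2G03740 and AT3G15670 were faint with DEX alone, at 5.94 and 3.78, 1.63 and 6.32, and 2.56 and 4.02, and gave differences of 2.39, 2.71 and 3.21. AT1G72540 had 31.4 and 38.8 in mock and 27.5 and 33.3 with NAA, so its level with DEX alone was below that in mock. AT3G15670 had 53.6 and 14.2 in mock and 2.44 and 2.02 with NAA. Its change of -1.33 without DEX (SE 0.31, adjusted p = 0.018) is part of its difference, and its mock arrays lay far apart. AT2G03740 was not called without either DEX array, either NAA+DEX array, mock replicate 1, or any array with CHX alone or NAA+CHX, and AT3G57950 was not called without either NAA+DEX array, DEX replicate 2, NAA replicate 1 or mock replicate 1. With a pseudocount of 1 the call of AT5G52390 was lost (adjusted p = 0.16). Of the 90 positive probe sets, 46 rose with DEX and were not called without it, 21 rose in both, 14 rose with DEX and fell without it, 7 fell without DEX and were not called with it, and 2 fell in both.

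Negative differences were mostly deeper falls. AT3G62040 went from 2285 and 2557 to 151 and 137 with DEX, and from 2198 and 2464 to 1422 and 1355 without it, where the change of -0.74 did not pass (difference -3.19, SE 0.36, adjusted p = 0.003). AT3G53980 went from 11048 and 9725 to 1142 and 771 with DEX and from 9951 and 10012 to 5735 and 5546 without it (difference -2.62, SE 0.34, adjusted p = 0.0073). AT1G48750 went from 9449 and 9494 to 882 and 935 with DEX, and from 7823 and 10301 to 5019 and 4139 without it (difference -2.38, SE 0.29, adjusted p = 0.0047). AT4G30450 and AT4G30460 fell in both settings, with differences of -2.72 and -1.89. BCAT4 also fell in both, from 3424 and 3617 to 1456 and 1656 without DEX, and its difference of -1.85 (SE 0.26) passed at an adjusted p = 0.0096. AT2G41480 (PRX25) differed by -1.46 (SE 0.25, adjusted p = 0.022). AT3G62960 was of another kind: it rose by 2.66 without DEX, from 2.07 and 2.66 to 76.6 and 129, and lay between 3.08 and 19.9 with DEX; its difference of -2.23 did not pass without DEX replicate 1 (adjusted p = 0.055) or mock replicate 1 (0.061). Of the 97 negative probe sets, 38 fell in both settings, 30 fell with DEX and were not called without it, 12 rose without DEX and were not called with it, 9 rose in both, and 8 fell with DEX and rose without it.

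**Figure D5:**
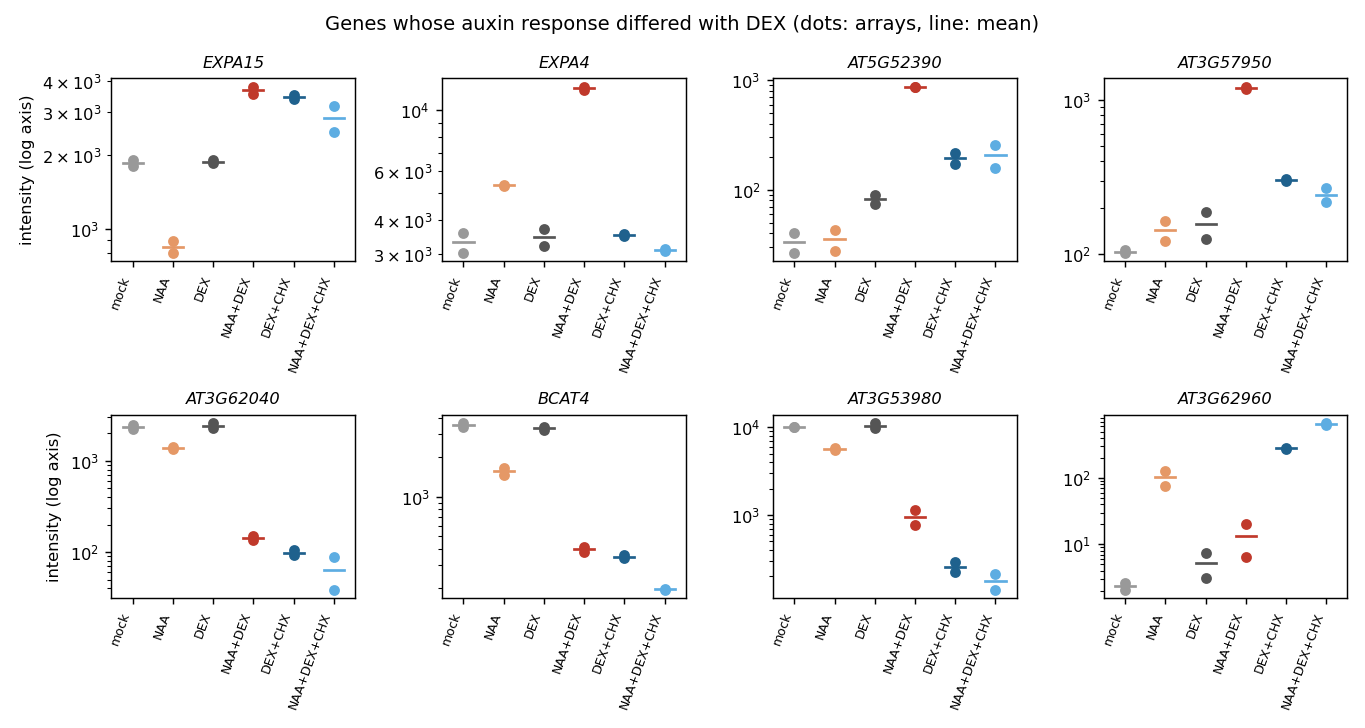
Intensity (log axis, arbitrary units) of 8 genes whose auxin response differed with DEX, in 6 groups; dots are arrays and lines are means of 2 arrays. The NAA+DEX arrays are the highest of those without CHX for EXPA15, EXPA4, AT5G52390 and AT3G57950 and the lowest for AT3G62040, BCAT4 and AT3G53980, whereas AT3G62960 was highest there with NAA alone.

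The same auxin contrast was measured while protein synthesis was inhibited, as NAA+DEX+CHX vs DEX+CHX, again on other arrays. It gave 268 calls, 1.18% of the probe sets, with 146 higher (0.642%) and 122 lower (0.536%), and 0 by a fit of only its own 4 arrays (2904 at an unadjusted p under 0.05). It was 18 without DEX+CHX replicate 2. Of the calls with DEX and no CHX, 115 were also made here in the same direction (44 rises and 71 falls), which is 2.12% of the former and 42.9% of the latter. The difference with CHX passed for 2108 probe sets, 9.27% of those tested, with 4.95% positive and 4.32% negative.

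The 12 largest rises did not pass under CHX, where 1.03% of all genes did. For all 12 the difference passed, as for 8.09% of all genes. The 12 were chosen by their rise without CHX, which is a term of that difference. Passing was therefore favoured by the choice, and the count is not a result about these genes. For some of the 12 the level with DEX+CHX was already near or above that with NAA+DEX. GH3.1 had 3240 and 3865 with DEX+CHX and 3705 and 3106 with NAA+DEX+CHX, near its 4117 and 3484 with NAA+DEX, and its difference was 5.29 (SE 0.27, adjusted p = 2.2e-06). AT4G37290 had 7773 and 7878 with DEX+CHX and 8603 and 8174 with NAA+DEX+CHX, above the 1567 and 1678 of NAA+DEX. IAA30 had 1577 and 1558 against 1873 and 1806. In 10 of the 12 both DEX+CHX arrays were above both DEX arrays, as in 35.2% of all probe sets. LBD29 was different, with 466 and 415 against 456 and 547 under CHX and 3695 and 4266 with NAA+DEX. AT2G19970 was nearly lost under CHX, at 5.97 and 2.21 against 2.26 and 1.29. CLE44 stayed low under CHX, with 144 and 183 against 122 and 161. LBD16 was the exception among the genes of lateral root initiation, with 774 and 940.1 against 1424 and 1440, a log2 rise of 0.74 under CHX (SE 0.15, adjusted p = 0.045) that was not called with only the 4 arrays of that comparison.

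The 12 largest falls did not pass under CHX either, which does not show that they were absent. AT4G25250 gave -1.21 there and AT5G04120 -1.17 (adjusted p = 0.16 and 0.082). The starting level was mostly low. AT4G30450 had 43.4 and 53.1 with DEX+CHX, against 2302 and 2432 with DEX, and AT3G53980 had 227 and 290.1 against 11048 and 9725. In 10 of the 12 both DEX+CHX arrays were below both DEX arrays, as in 38.0% of all probe sets. The exceptions were AT5G04120, with 2368 and 2093 in DEX+CHX and 985 and 971 in NAA+DEX+CHX, and AT3G01190, with 4788 and 4731 against 3282 and 3221. Outside these 12, EXPB1 was also bright under CHX, with 2550 and 2360 in DEX+CHX and 2236 and 2014 in NAA+DEX+CHX. Its fall of 3.2 without CHX stood beside a change of -0.21 with it, a difference of -2.99 (SE 0.20, adjusted p = 1.2e-05).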

How the data were processed

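The deposited table gives a linear intensity for each probe set on each array, made by the authors with Affymetrix Expression Console 1.3, per the submitters' processing notes; the summary method is not given in the sources used here. After removal of 64 AFFX control probe sets from 22810, 22746 were tested. A group-means model over 16 arrays (8 groups of 2, 8 residual degrees of freedom) was fitted to log2(intensity + 16) with limma 3.58.1 (R 4.3.3), with Benjamini-Hochberg adjustment over all probe sets and two-sided moderated tests; no sample was dropped or imputed. The table gives no detection calls. The number of arrays limits the precision. On simulated data for NAA+DEX vs DEX, over 22746 probe sets, 44 of 100 changes of log2 1 were recovered. Of 100 changes of log2 2, 84 were recovered, with 4 false calls in all. Far fewer probe sets were changed there than the 23.9% called in the data, so these shares need not apply to the data.

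Gene names came from the platform annotation (1 gene for 13513 probe sets, several for 503, none for 8730) and RefSeq's TAIR10.1 gene table, which held a symbol for 13286 of 13356 genes. A gene with several probe sets was read from the brightest. Genes named are the 12 largest rises and falls, the 6 largest differences in each direction, LBD16, LBD18, LBD29, LBD33, PUCHI, and up to 4 called per direction of each of 26 gene lists (23 with a measured gene), or 2 uncalled where none passed; a few other list members and all symbol-family members named were chosen after their values were seen. The groups and lists were chosen with earlier results of these data known. Of 2 labelling kits the labels name, none is assigned to an array here. Alternatives tried were pseudocounts of 1 and 64, a mean intensity of at least 100, quantile normalization, median centring, a trended robust prior, array weights, a replicate block, smaller sets of arrays, and each of the 16 arrays left out. Same-numbered arrays did not deviate together (correlations from -0.0587 to 0.0669), so replicates were not treated as pairs. Python 3.11.15 was used for tables.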

Additional observations from a re-analysis of the deposited data

Results flagged for a closer look

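The results here are those whose effect differed between settings by a test of the difference itself. The auxin response differed with DEX for 187 probe sets. Among named genes, the log2 difference was 3.21 for AT3G15670, 3.11 for AT5G52390, 2.71 for AT2G03740, 2.44 for AT3G57950, 2.44 for AT3G59850, 2.39 for AT1G72540, 2.08 for EXPA15 and 1.1 for EXPA4. It was -3.19 for AT3G62040, -2.72 for AT4G30450, -2.63 for AT1G49470, -2.62 for AT3G53980, -2.38 for AT1G48750, -2.23 for AT3G62960, -1.89 for AT4G30460, -1.85 for BCAT4 and -1.46 for AT2G41480.

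The auxin response with DEX differed with CHX for 2108 probe sets. The log2 difference was 5.29 for GH3.1, 5.15 for GH3.3, 4.94 for AT1G73610, 4.71 for PR-1-LIKE, 4.52 for LBD29 and 4.52 for AT4G37290. It was -5.35 for AT3G45680, -4.43 for AT4G30450, -4.36 for AT4G25250, -4.11 for XTH21, -3.60 for AT4G30460 and -3.54 for AT2G31790.

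Of 13 genes with a single annotated gene that were called in opposite directions with and without DEX, EXPA15 had the lowest adjusted p without DEX. AT4G24780, a member chosen after its values were seen, had 3775 and 3689 with DEX and 5350.5 and 4949 with NAA+DEX, against 2937 and 3584 in mock and 1679 and 1873 with NAA, a difference of 1.33 (SE 0.19, adjusted p = 0.011). AT1G68850 showed the same pattern, with 1336 and 1177 in NAA+DEX and 406 and 434 in NAA, a difference of 1.84 (SE 0.29, adjusted p = 0.016).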

How the results depend on the processing

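For NAA+DEX vs DEX, no named gene called in it reversed under the alternatives run, but the balance of rises and falls turned from 3203 and 2233 to 2296 and 2843 under median centring, and the median of all probe sets from 0.0773 to -0.0505. Of 72 named genes called, 58 kept the call under all 10 settings other than leaving out an array, and 58 when any of the 16 arrays was left out; the lost calls had log2 differences of at most 1.75 in size. The 5436 calls became 3319 with only the arrays compared, where fewer degrees of freedom remain, and 3367 to 5916 with 1 array left out. NAA vs mock gave 1855 with only the 8 arrays without CHX, 671 with only its own arrays and 1510 to 2978 with 1 array left out. The difference with DEX gave 349 with a pseudocount of 64, 340 with a mean of 100 or more, 328 with a trended robust prior, 14 with only the 8 arrays without CHX, and 89 to 377 with 1 array left out. Leaving out the first and second array gave 90 and 377 for mock, 89 and 95 for NAA, and 91 and 119 for NAA+DEX, and leaving out the second DEX array gave 95. Of the 12 genes named for the difference with DEX, 3 kept the call under all 10 settings other than leaving out an array. The other 9 lost it in at least 1 of these 10 settings. NAA+DEX+CHX vs DEX+CHX gave 132 and 600 with pseudocounts of 1 and 64, 529 with a mean of 100 or more, 611 with the trended prior, 406 with array weights, 0 with only its own arrays by limma (2904 at an unadjusted p under 0.05), and 18 to 300 with 1 array left out; it gave 18 to 41 calls without 1 of its own 4 arrays. The difference with CHX gave 1258 to 2485. Where an array left out changed a count, the cause was not tested. With a replicate block, the 5 comparisons in the order above gave 5196, 2853, 168, 183 and 1943 calls, and the numbers were not shown to pair the arrays. Intensities near the pseudocount limit what can be said of faint genes.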

Other observations

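Gene families outside the lists were grouped by symbol after the values were seen, so they are described without a test, against 13.1% rises and 8.69% falls over all genes. Of 47 measured UGT glycosyltransferases 3 rose and 18 fell, with a median of -0.35, and the 18 became 9 to 17 when an array was left out. UGT72E1, which glucosylates lignin precursors, went from 1478 and 1386 with DEX to 328 and 419 with NAA+DEX, and UGT87A2 was among the risers, from 775 and 605 to 1261 and 1408. Of 11 measured GSTU glutathione transferases 4 fell and 0 rose. GSTU20 went from 1906 and 1902 to 576 and 536 with DEX (log2 fall of 1.75, SE 0.21), against -0.33 without DEX, and the difference of -1.42 did not pass (adjusted p = 0.059). Of 22 measured TBL genes, a family of wall polysaccharide acetylation, 9 fell and 2 rose. TBL38 went from 966 and 949.6 to 209.8 and 215, whereas TBL36 went from 861 and 646 to 3396 and 3220.4, and its difference with DEX of 1.60 passed (adjusted p = 0.022). Sugar transporters of the SWEET family gave 3 falls of 14, those of SWEET13, SWEET14 and SWEET17.

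A family of nuclear proteins was on the other side. Of 8 measured CHR chromatin remodellers 4 rose and 1 fell, and 4 rose under quantile normalization and median centring, and 2 without DEX replicate 2. CHR17 went from 574 and 566 to 1183 and 1211.

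Over 5818 pairs of adjacent measured genes, 19.3% of the neighbours of a riser rose, against 14.3% over all members of pairs, and 15.7% of the neighbours of a faller fell, against 9.5%. Both genes rose in 160 pairs, both fell in 87, and 129 pairs were called in opposite directions, such as AT1G73610 and AT1G73620 (5.47 and -0.97). These are descriptions without a test. AT2G19970, AT2G19980 and PR-1-LIKE stood side by side with rises of 4.29, 1.58 and 4.90, and AT3G57940, AT3G57950 and AT3G57960 with rises of 1.16, 2.84 and 2.12. AT4G25250 and AT4G25260 fell by 5.57 and 1.71.

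Genes called under CHX gave other values without it. The 146 probe sets raised in NAA+DEX+CHX vs DEX+CHX had a median of 1.04 there, by which they were chosen, and 0.15 in NAA+DEX vs DEX. The 122 lowered ones had a median of -0.96 there and -0.79 in NAA+DEX vs DEX.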
